A study of Mus musculus with 24 samples.

Results

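The genes described here encode the proteins of the cytosolic ribosome. They were taken by symbol: every entry of the deposited table named Rps or Rpl with a number and an optional letter, together with Rplp0, Rplp1, Rplp2 and Rpsa, and without the entries marked as pseudogenes by "-ps". The rule gave 84 genes of 25965 entries, 33 of the small and 51 of the large subunit. It also takes in paralogs such as Rps27l and Rpl39l but leaves out ribosomal proteins with other names, such as Fau, Rpl36al and Gnb2l1 (Rack1), which are given separately. The samples were single oocytes of adult females, collected after natural ovulation and freed of cumulus cells and of the zona pellucida. AMH_Tg females carried the Thy1.2-AMH transgene (genotype Thy1.2-AMHTg/0), in which the Thy1.2 promoter, used mainly for expression in neurons, drives anti-Müllerian hormone (AMH). In females, granulosa cells of growing follicles make this hormone. WT females (Thy1.2-AMH0/0) did not carry it. There were 4 females of each genotype, and a lane of sequencing combined 1 AMH_Tg with 1 WT female. Values of 10 AMH_Tg and 11 WT oocytes were used, together with 1 library of the control RNA that comes with the amplification kit, whose tissue the labels do not name. A further AMH_Tg oocyte of lane 1 and the water control are not analysed here.

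A ribosome holds 1 copy of most of its proteins, so growing cells keep the transcripts of both subunits at similar levels. Their mRNAs start with a terminal oligopyrimidine tract, a run of C and T through which mTOR and Larp1 set their translation and stability. In the mouse, ribosomes and their mRNAs are stored during oocyte growth. The fully grown oocyte is transcriptionally silent, and at meiotic maturation many stored mRNAs lose their poly(A) tails and are degraded, those of ribosomal proteins among them. Transcripts measured after ovulation are therefore what remains of that store. The libraries were made by oligo(dT)-primed amplification, and a level here is the amount captured in this way.

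Levels are in RPM, which scales a gene's reads to 1000000 reads in a library. Library totals ran from 20400000 to 33300000 reads in the oocytes, and 3 reads stood for 0.0900 to 0.147 RPM, a limit that covers counting error only. The oocyte markers were present; Gdf9, a growth factor of the oocyte, was at 6030 ± 1130 RPM in AMH_Tg and 4670 ± 1320 RPM in WT (SD, n = 4 females each) against 5.08 RPM in the control RNA. None of 16 cumulus and granulosa markers and none of 7 blood markers reached a mean of 1 RPM over the 21 oocytes. The highest mean of a genotype was that of Inha, an inhibin subunit made by granulosa cells, with 0 RPM in AMH_Tg and 1.17 ± 2.27 RPM in WT, where 1 oocyte had 13.7 RPM. The cumulus markers summed to 0 to 1.27 RPM in AMH_Tg oocytes and 0.0969 to 31.3 RPM in WT oocytes, and the highest value was oocyte C of the WT female of lane 2. The Amh entry had no read in any AMH_Tg oocyte and so gives no check of the genotype labels. Apart from the rest in these genes stood 2 females. Both oocytes of the WT female of lane 4 lay above the other 19 oocytes in 12 of the 61 ribosomal protein genes that reached a mean of 1 RPM (4.87% of all genes tested) and below them in 2 (2.55%). Both oocytes of the AMH_Tg female of lane 1 lay below the other 19 in 10 of the 61 (3.67%). The WT female of lane 4 was also high in Zp3, a zona pellucida protein, which had 114 to 215 RPM in AMH_Tg oocytes, 395 and 721 RPM in her oocytes and 91.4 to 158 RPM in the other WT oocytes. Differences of some of the genes described below are therefore also given without 1 or the other of these females. A difference printed without such a value is not thereby shown to be stable.

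Ribosomal protein transcripts were present at very unequal levels. Of the 84 genes, 61 reached a mean of 1 RPM over the 21 oocytes, 27 of the small and 34 of the large subunit. Among them 11 had at least 20 RPM in AMH_Tg oocytes and 13 in WT oocytes, while 33 in AMH_Tg and 28 in WT stayed under 5 RPM. Levels were also divided by coding length, in RPM per kilobase (kb) of coding sequence, which compares genes only roughly. Reads can also come from untranslated ends, so genes with short coding sequences can be overstated. The Rpl24 and Rpl13a entries each cover a second gene. Over the 83 genes with a coding length the median was 4.06 RPM per kb in AMH_Tg and 6.14 in WT oocytes. It was 35.2 RPM per kb in the control RNA. The 90th percentile was 207 times the 10th in AMH_Tg oocytes, 149 times in WT oocytes and 11.6 times in the control RNA. Thus the oocytes held a wider range of levels than the control RNA did. The low end of that range rested on genes with few reads, so the size of these folds is uncertain. Rpl10a, for example, had 38 reads over all AMH_Tg oocytes. Both subunits had similar medians, 3.88 (small) and 4.81 (large) RPM per kb in AMH_Tg oocytes and 5.9 and 6.14 RPM per kb in WT oocytes.

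Rps27l stood at the top. It lies at chr9:66946086-66949516 (GRCm38) and encodes a paralog of the small subunit protein Rps27 that is known as a target of p53. Its female means were 189, 305, 337 and 252 RPM in AMH_Tg and 358, 321, 394 and 240 RPM in WT, in lanes 1 to 4, and the control RNA had 11.9 RPM. Per kilobase this was 1070 RPM per kb in AMH_Tg, 1300 in WT and 47.4 in the control RNA. Rps27l alone made up 29.1 ± 1.77% of the summed RPM of the 84 genes in AMH_Tg oocytes and 27.8 ± 3.32% in WT oocytes (SD, n = 4 females each), against 0.61% in the control RNA. Ribosomal proteins outside the symbol rule, such as Gnb2l1, are not in this sum. Next per kilobase came Rplp2, of the stalk that recruits elongation factors, with 178 RPM per kb in AMH_Tg and 225 in WT. Rpl37 of the large subunit had 142 RPM per kb in AMH_Tg and 202 in WT, and Rpl39l had 84.4 and 154. Rps15a had 89.3 and 107, so it stood above Rpl39l in AMH_Tg and below it in WT.

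At the low end stood genes of core ribosomal proteins. Rpl3, whose protein reaches into the peptidyl transferase centre, had 0.108 ± 0.0779 RPM in AMH_Tg and 0.0683 ± 0.0735 RPM in WT, with 25 reads over all AMH_Tg oocytes and 18 over all WT oocytes, against 34.1 RPM in the control RNA. Rpl23a had 9 reads in each genotype, and Rpl9 had 41 in AMH_Tg and 31 in WT. The 23 genes that did not reach a mean of 1 RPM included Rpl3l, Rpl3, Rpl23a, Rpl9, Rps27, Rpl10l, Rps19, Rpl10a, Rpl22l1, Rpl7a, Rpsa, Rpl12, Rps27a, Rpl7, Rpl29, Rpl36, Rpl39, Rps20, Rpl36a, Rpl35a, Rpl38 and Rpl21. They were not tested between genotypes. Of these only Rpl3l, a paralog of Rpl3 used by heart and skeletal muscle, had no read in any oocyte, where a count of 0 allows up to 3 reads a library. It had 18 reads in the control RNA.

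Most of these genes have near-identical copies. Of the 83 genes with a coding sequence in GENCODE M21, the median gene shared 90.3% of its coding 50-base stretches with other annotated genes. For 29 every coding stretch was shared, and 8 shared under 25%, among them Rpl39l, Rpl3l, Rps3, Rpl8, Rpl10l, Rpl4 and Rpl7l1. All shares of stretches given here refer to the coding sequence of the gene. Its untranslated ends, from which reads can also come, were not compared. The sources used here do not say how reads with several matches were counted, so levels of genes with copies are uncertain. The share of shared stretches and the level per kilobase had a Spearman rho of -0.226 across genes in WT oocytes and -0.271 in the control RNA, a description over genes, which are not independent. The 60 entries marked "-ps" summed to 0.364 RPM in AMH_Tg oocytes, 0.669 RPM in WT oocytes and 3.27 RPM in the control RNA. Other listed genes that share at least 1 stretch could hold far more. Their summed mean over the 21 oocytes was 455 RPM for Rpl7a (itself 0.28), 168 RPM for Rps26 (1.04) and 36.7 RPM for Rplp2 (70.8). For others, such as Rpl3 and Rps27, it was 0 RPM. What part of those reads came from shared stretches was not tested.

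Within several pairs of paralogs, though not all, one member was far above the other in oocytes. Rps27 had 0.0445 ± 0.026 RPM in AMH_Tg and 0.0892 ± 0.0269 RPM in WT, below the level of 3 reads, and 10.8 RPM in the control RNA, where Rps27l was nearly equal to it. Rpl39l encodes the germ cell paralog of Rpl39, a small protein of the exit tunnel, and mouse Rpl39l is known for its need in sperm formation. Its female means were 6.84, 16, 17 and 11.9 RPM in AMH_Tg and 25.3, 26, 34.6 and 8.57 RPM in WT. Rpl39 itself had 0.341 ± 0.153 RPM in AMH_Tg and 0.801 ± 0.457 RPM in WT. In the control RNA the order was the other way round, with no read of Rpl39l and 5.85 RPM of Rpl39. Against a floor of 3 reads in that library, Rpl39l was at least 94.8-fold higher in AMH_Tg oocytes and at least 173-fold higher in WT oocytes. None of the 50-base stretches of its coding sequence is shared with another annotated gene, while 86.5% of those of Rpl39 are. For Rps27l the share was 48.3% and for Rps27 it was 100%.

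Rpl7l1, a paralog of Rpl7 with a role in ribosome assembly, had 3.76 ± 1.04 RPM in AMH_Tg and 4.51 ± 1.7 RPM in WT, and Rpl7 had 0.349 ± 0.189 and 0.636 ± 0.28 RPM. Rpl36al had 1.61 ± 0.475 RPM in AMH_Tg and 2.57 ± 0.837 RPM in WT, and Rpl36a had 0.535 ± 0.274 and 0.796 ± 0.485 RPM. In these pairs, as in those of Rps27l and Rpl39l, the paralog was the higher one in all 21 oocytes. Other pairs went the other way. Rpl22, an RNA-binding protein of the large subunit, had 15.5 ± 2.69 RPM in AMH_Tg and 17.3 ± 3.25 RPM in WT, while its paralog Rpl22l1 had 0.185 ± 0.102 and 0.257 ± 0.104 RPM. In the control RNA both stood level, at 19.3 RPM for Rpl22 and 19.5 RPM for Rpl22l1. Rpl10 had 1.69 ± 0.663 RPM in AMH_Tg and 2.18 ± 0.592 RPM in WT. Rpl10l, which replaces it in mouse male meiosis, had 0.0616 ± 0.0813 and 0.282 ± 0.234 RPM. Rps4x, the X-linked gene, had 0.985 ± 0.331 RPM in AMH_Tg and 1.36 ± 0.493 RPM in WT. The entry Rps4y2 had 6.51 ± 0.802 and 7.91 ± 8.78 RPM and was above Rps4x in 19 oocytes. GENCODE M21 names its locus Rps4l and lists it as a transcribed processed pseudogene.

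**Figure D1:**
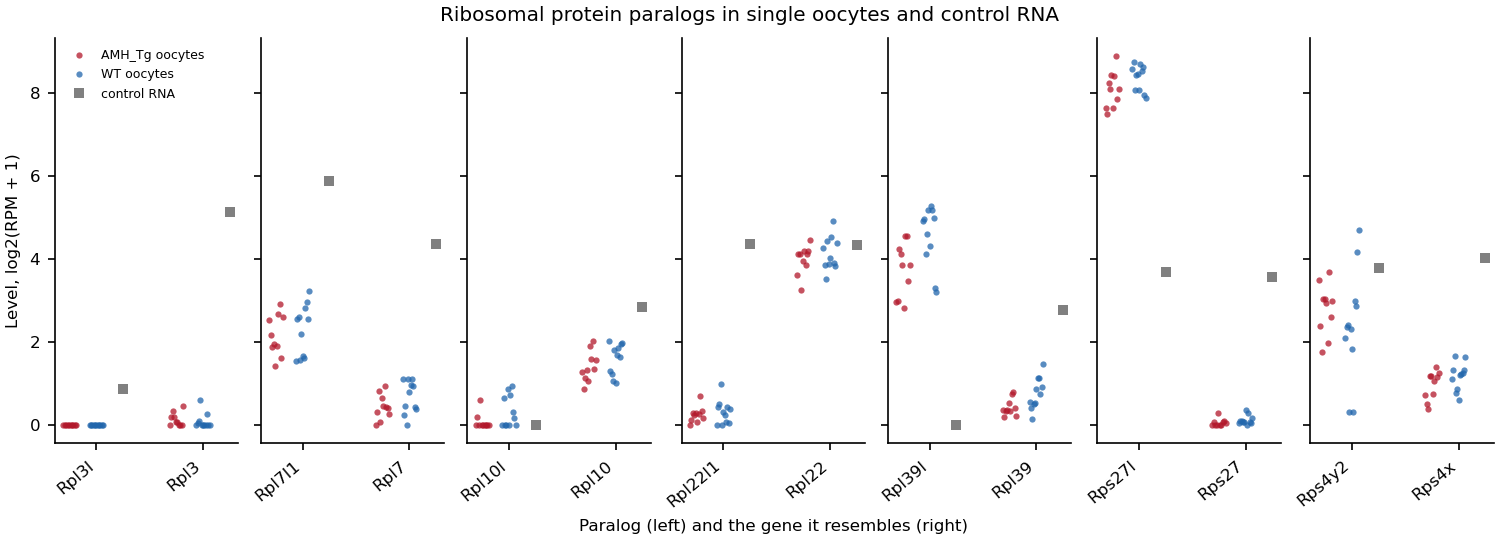
Level of each paralog (left in each panel) and of the gene it resembles (right) as log2(RPM + 1), with 1 point for each AMH_Tg oocyte (10), each WT oocyte (11) and the control RNA (1 square). Rps27l and Rpl39l lie above Rps27 and Rpl39 in all 21 oocytes, while Rpl22 and Rpl10 lie above Rpl22l1 and Rpl10l.

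Most ribosomal protein transcripts were lower in oocytes than in the control RNA, a comparison with 1 control library and so without a test. Of the 81 genes at 1 RPM or more in WT oocytes or the control RNA, 60 were at least 2-fold lower in WT oocytes on the log2(RPM + 1) scale (56.3% of all genes compared were) and 6 were at least 2-fold higher (24.6%). The median log2 difference, WT oocytes minus control RNA, was -1.81 over these genes and -1.38 over all genes compared; for AMH_Tg oocytes it was -2.35 and -1.40. Rpl3 (-5.04), Rps3 (-4.92), Rpl9 (-4.57) and Rps19 (-4.35) lay furthest below, where Rps3 forms part of the mRNA entry site and human RPS19 is mutated in Diamond-Blackfan anaemia. Rps3 had 1.64 ± 1.45 RPM in AMH_Tg and 2.67 ± 2.73 RPM in WT against 110 RPM in the control RNA, and it shares 8.09% of its 50-base stretches. Rpl3, Rpl9 and Rps19 share 95.7%, 100% and 81.1% of theirs. Among those furthest above, besides Rpl39l, were Rps27l (4.67) and Rpl17 (2.78). Rpl17, a protein that lines the exit tunnel, had 11.4 ± 3.01 RPM in AMH_Tg and 13.6 ± 4.03 RPM in WT against 1.13 RPM in the control RNA. The control value of Rpl17 stands for 25 reads, and 100% of its stretches are shared with other genes. Of the genes that share under 25% of their stretches 5 of 6 were at least 2-fold lower in WT oocytes (median -3.20), and of those that share at least 75% it was 49 of 61 (median -1.96).

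**Figure D2:**
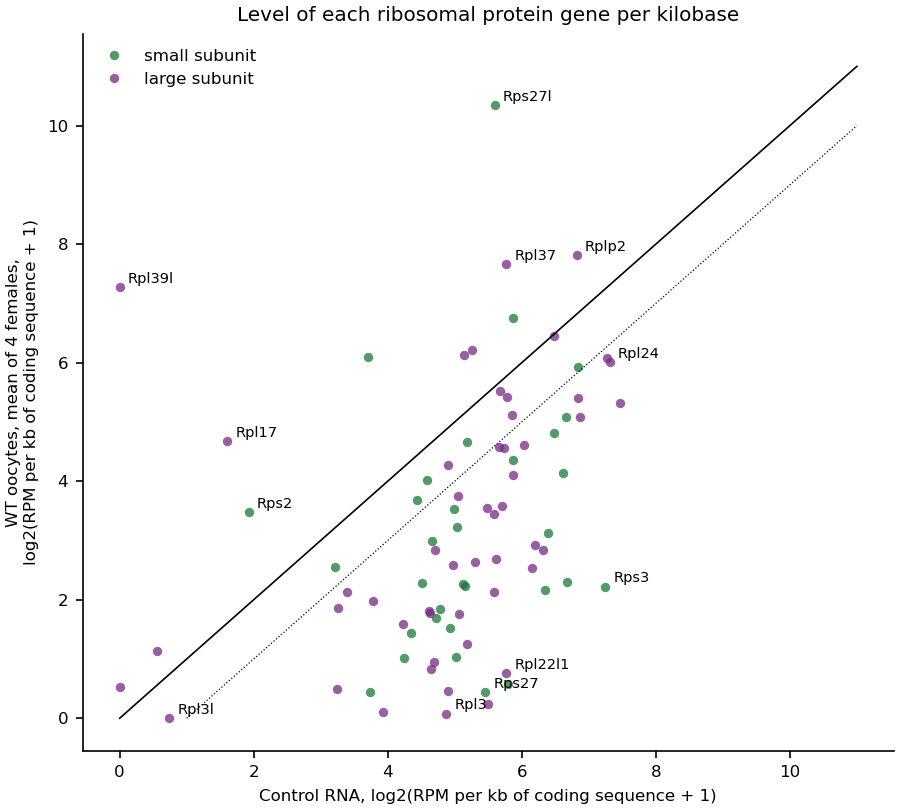
Level of 83 ribosomal protein genes in WT oocytes (vertical axis, mean of 4 females) and in the control RNA (horizontal axis), both as log2 of RPM per kilobase of coding sequence plus 1, with small subunit genes in green and large subunit genes in purple. The solid line marks equal levels and the dotted line 2-fold lower in oocytes; most genes lie below the dotted line, while Rps27l and Rpl39l lie far above the solid one.

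Most of these transcripts were lower in AMH_Tg than in WT oocytes, though no single gene passed the adjusted test. On the log2(RPM + 1) scale 59 of the 61 tested genes were lower (52.2% of all genes tested), by a median of -0.39 over the 61 genes and -0.01 over all 10987 genes tested. With limma on the female means, 0 of 61 had a Benjamini-Hochberg adjusted p under 0.05 (0% of all genes tested), and the lowest adjusted p was 0.724. At an unadjusted p under 0.05, 13 of 61 were lower (4.03% of all genes tested) and none was higher. With limma voom on reads summed per female 0 of 61 passed the adjusted threshold and 6 were lower at an unadjusted p under 0.05. In all 4 lanes 27 of 61 were lower in the AMH_Tg female (10.3%), and for 8 every AMH_Tg female mean of the log values lay below every WT one (2.64%). The numbers of genes lower by lane were 55, 53, 46 and 44 of 61 in lanes 1 to 4. As described below, these genes varied together between oocytes, so the counts are not made of independent observations.

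The counts at an unadjusted p depended on single females. Without the AMH_Tg female of lane 1, 58 of 61 were still lower, but 2 at an unadjusted p under 0.05, and the median was -0.27. Leaving out the WT female of lane 3 gave 57 lower with a median of -0.38, and again 2 with an unadjusted p under 0.05. Leaving out the AMH_Tg female of lane 2 gave 7 at an unadjusted p under 0.05, and leaving out the WT female of lane 2 gave 8. Without the WT female of lane 4 the values were 56 lower, 15 at an unadjusted p under 0.05 and a median of -0.35. The share of reads that fell in listed genes moved with this comparison: its female means were 94.5%, 93.3%, 92.5% and 93.3% in AMH_Tg and 92.7%, 92.4%, 91.8% and 93.3% in WT, higher in AMH_Tg in all 4 lanes. With levels scaled to the reads in listed genes, 59 of 61 were lower, the median was -0.41, and 14 had an unadjusted p under 0.05 but none passed the adjusted threshold. RPM are shares of a library, so less RNA of these genes and more RNA of other genes cannot be told apart.

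In the small subunit 26 of 27 tested genes were lower in AMH_Tg. Their median log2 difference was -0.41, and 7 had an unadjusted p under 0.05. Rps3a (Rps3a1 in GENCODE M21), a protein of the platform side of the subunit, had 4.56, 3.79, 5.74 and 5.14 RPM in AMH_Tg females and 10.3, 10.9, 10.2 and 6.22 RPM in WT females. The groups did not overlap, and the WT female of lane 4 was the one nearest to the AMH_Tg values. The difference was -0.83 ± 0.23 (SE; limma p = 0.00367, adjusted p = 0.724). Rps21 had 3.5, 5.46, 5.91 and 5.28 RPM in AMH_Tg and 6.25, 7.17, 9.89 and 9.26 RPM in WT, again with no overlap (-0.61 ± 0.24, adjusted p = 0.724). Rps9, a protein of the mRNA entry channel, had 0.849, 1.54, 1.3 and 0.909 RPM in AMH_Tg and 2.07, 1.53, 2.46 and 3.11 RPM in WT. The AMH_Tg and WT females of lane 2 were close to each other in raw RPM, and on the log scale the groups were just apart (-0.60 ± 0.23, adjusted p = 0.724).

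Rps14 sits on the platform of the small subunit, and loss of 1 human copy is a feature of the 5q- syndrome. It had 13.3, 17, 26.9 and 21.8 RPM in AMH_Tg and 23.4, 25.8, 27.8 and 31.1 RPM in WT, with the AMH_Tg female of lane 3 inside the WT range (-0.51 ± 0.21, adjusted p = 0.724). Rps10 had 1.51, 2.15, 2.9 and 1.47 RPM in AMH_Tg and 2.84, 2.53, 3.95 and 4.37 RPM in WT, also with 1 AMH_Tg female inside the WT range (-0.59 ± 0.25, adjusted p = 0.724). The smallest differences were those of Rps23 (-0.04 ± 0.22) and Rps18 (-0.06 ± 0.22).

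In the large subunit 33 of 34 were lower. The median was -0.36, and 6 had an unadjusted p under 0.05. Rpl14 had 4.68, 7.44, 7.99 and 6.03 RPM in AMH_Tg and 10.7, 10.8, 12.1 and 8.82 RPM in WT, with no overlap (-0.66 ± 0.22; limma p = 0.0101, adjusted p = 0.724). Rpl23, which besides its place in the ribosome can bind and inhibit Mdm2, had 1.27, 2.85, 3.81 and 2.32 RPM in AMH_Tg and 4.41, 4.35, 5.76 and 3.53 RPM in WT. The female values of Rpl23 in RPM overlapped slightly at 1 female of each genotype, while the means of the log values did not (-0.70 ± 0.26, adjusted p = 0.724). For Rpl37 the AMH_Tg females had 24.2, 37.1, 58.5 and 45.3 RPM and the WT females 64.4, 61.6, 70.4 and 39.3 RPM. They overlapped through the WT female of lane 4, and without her the difference was -0.72 ± 0.23, against -0.55 ± 0.25 with her (adjusted p = 0.373 and 0.724). Without the AMH_Tg female of lane 1 it was -0.34 (adjusted p = 0.999).

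Rpl35, at the mouth of the exit tunnel, had 4.16, 8.4, 11.5 and 7.7 RPM in AMH_Tg and 10, 13.9, 16.8 and 8.93 RPM in WT (-0.63 ± 0.28, adjusted p = 0.726). Rpl8, which binds near the peptidyl transferase centre, had 1.56, 3.12, 3.75 and 3.99 RPM in AMH_Tg and 5.51, 3.74, 5.63 and 5.43 RPM in WT (-0.59 ± 0.27, adjusted p = 0.726). Both genes overlapped between the genotypes. Without the AMH_Tg female of lane 1 the difference was -0.40 for Rpl35 and -0.39 for Rpl8 (adjusted p = 0.999 for both). Rpl8 shares 8.73% of its stretches with other genes. Rplp2 had 39.4, 69.9, 68.4 and 68.2 RPM in AMH_Tg and 84.2, 74.5, 76.1 and 75.9 RPM in WT. Its groups did not overlap, but the AMH_Tg female of lane 1 was far below the others: the log2 difference was -0.38 ± 0.19 over all females and -0.18 without her. The abundant paralogs were lower as well. Rps27l differed by -0.30 ± 0.19 (adjusted p = 0.764) and Rpl39l by -0.77 ± 0.37 (adjusted p = 0.737). Both were lowest among WT females in lane 4, and without that female they differed by -0.44 ± 0.18 and -1.17 ± 0.27 (adjusted p = 0.397 and 0.373). Without the AMH_Tg female of lane 1 the differences were smaller, -0.15 for Rps27l and -0.54 for Rpl39l (adjusted p = 0.999 for both).

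The largest negative difference, that of the stalk protein Rplp1, rested on a single WT female. Rplp1 had 2.51, 3.48, 5.17 and 4.77 RPM in AMH_Tg and 3.87, 5.41, 5.6 and 30.2 RPM in WT (-0.83 ± 0.47, adjusted p = 0.764), and without the WT female of lane 4 it differed by -0.25 ± 0.27. Rpl41, the shortest ribosomal protein, had 0.952, 0.942, 1.3 and 1.47 RPM in AMH_Tg and 0.941, 1.17, 0.798 and 8.68 RPM in WT. Its difference of -0.44 ± 0.43 became 0.11 ± 0.24 without that female. Rps29 and Rps3 behaved alike, with -0.35 ± 0.35 and -0.43 ± 0.47 over all females and 0.00 ± 0.28 and 0.03 ± 0.38 without her. Thus Rpl41, Rps29 and Rps3 were lower through 1 WT female. Rplp1 and Rps29 were singled out after their values were seen, as were Rps18 and Rps23.

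Only Rpl24 and Rps4y2 were higher in AMH_Tg. The entry named Rpl24, chr16:55966275-56008913 (GRCm38), spans 42639 bases where the M21 gene Rpl24 spans 5161. It also covers the transcription factor gene Zbtb11, and it carries the gene ID of Zbtb11. It had 35.3, 38.3, 33.5 and 32 RPM in AMH_Tg and 33, 34, 32.1 and 20.5 RPM in WT (0.24 ± 0.19, adjusted p = 0.807), was higher in AMH_Tg in all 4 lanes, and differed by 0.08 ± 0.17 without the WT female of lane 4. Rps4y2 had 7.18, 5.63, 7.2 and 6.02 RPM in AMH_Tg and 3.9, 2.26, 4.48 and 21 RPM in WT (0.24 ± 0.48, adjusted p = 0.915). Leaving out WT females in turn gave -0.12 (lane 2) and 0.86 (lane 4). Neither entry measures a single protein-coding ribosomal protein gene of GENCODE M21. Without both, 59 of 59 were lower, with a median of -0.40. The Rpl13a entry, kept among these, spans 10674 bases where the M21 gene spans 3204, and it takes in the coding gene Gm45713. Among the tested genes that share under 25% of their stretches 6 of 6 were lower (median -0.31), and among those that share at least 75% it was 40 of 41 (median -0.39).

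**Figure D3:**
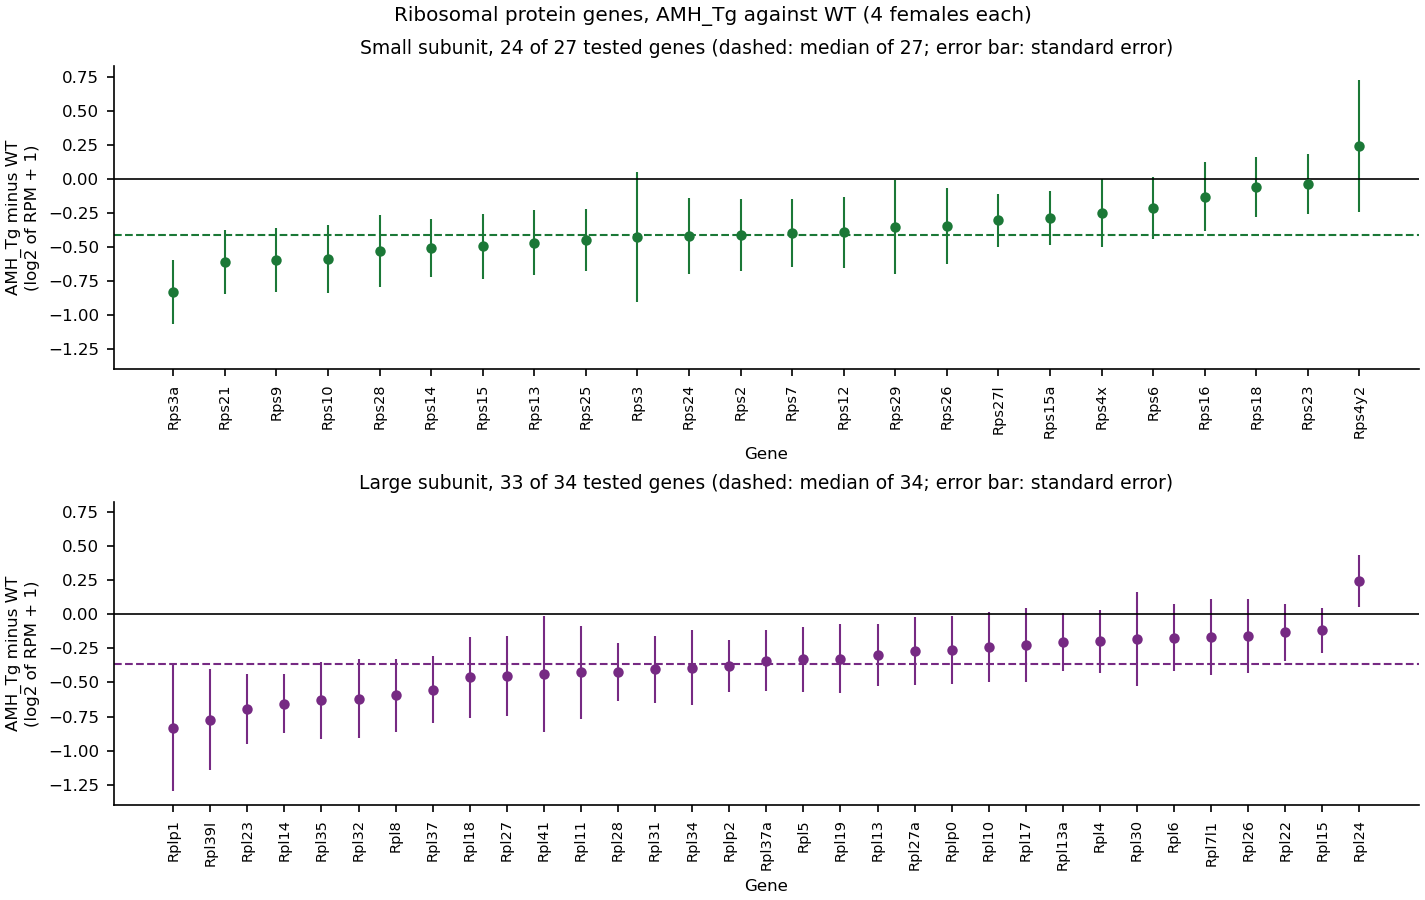
Log2 difference, AMH_Tg minus WT, for 24 of the 27 small subunit and 33 of the 34 large subunit genes tested, from limma on log2(RPM + 1) female means (n = 4 each), with the standard error as bar and the median of all tested genes of each subunit (-0.41 and -0.36) as dashed line. All points but Rps4y2 and Rpl24 lie below 0, and no gene passed the adjusted threshold.

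The transcripts of both subunits were lower in every lane. The median log2 difference of the small subunit minus that of the large was -0.05, and it ran from -0.09 to 0.01 when single females were left out. The mean log2 difference of the tested genes was -0.54, -0.27, -0.20 and -0.46 in lanes 1 to 4 for the small subunit and -0.62, -0.31, -0.26 and -0.30 for the large subunit. The summed level of small subunit genes was 432 ± 100 RPM in AMH_Tg and 547 ± 65.8 RPM in WT, and that of large subunit genes was 488 ± 91.9 and 626 ± 54.9 RPM (SD, n = 4 females each). Both sums were lower in AMH_Tg in all 4 lanes. The log2 ratio of the small to the large sum was -0.20 ± 0.07 in AMH_Tg and -0.20 ± 0.07 in WT, against -0.81 in the control RNA. Without Rps27l it was -1.63 ± 0.05 in AMH_Tg, -1.52 ± 0.15 in WT and -0.83 in the control RNA. Relative to the control RNA, the small subunit share of the oocytes was higher with Rps27l and lower without it. The WT value without Rps27l was -1.60 ± 0.04 over the 3 females other than that of lane 4.

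**Figure D4:**
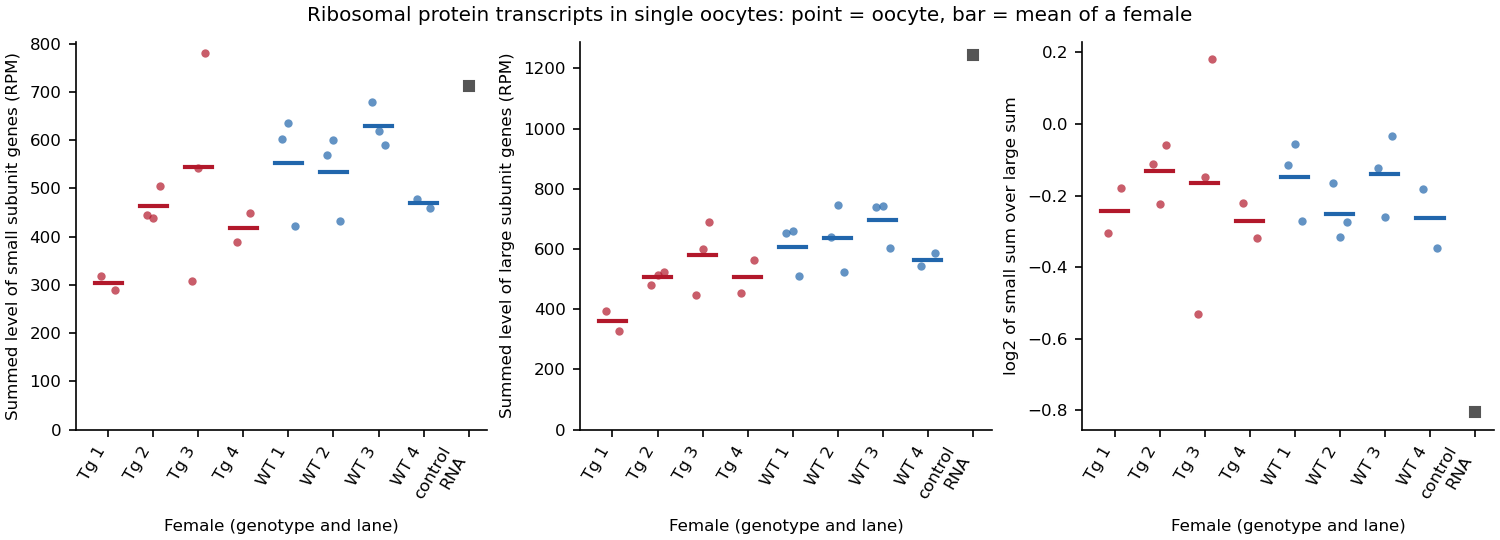
Summed RPM of the 33 small subunit genes (left) and of the 51 large subunit genes (middle), and the log2 ratio of the small to the large sum (right), for each oocyte (point), with the mean of each female (bar), AMH_Tg in red and WT in blue by lane, and the control RNA (square). The AMH_Tg female of each lane has lower sums than the WT female of that lane, while the female means of the ratio overlap between the genotypes; the oocytes of the AMH_Tg female of lane 3 spread the widest.

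The transcripts varied together from oocyte to oocyte. Over the 21 oocytes the median Pearson r between 2 tested ribosomal protein genes was 0.391 over 1830 pairs, and 87.1% of the pairs were positive. For all pairs of tested genes the median was 0.0065, with 50.8% positive. After removal of each female's mean, so that only sister oocytes were compared, the median r was 0.315 and 82.3% of pairs were positive, against 0.0085 and 51% for all genes. These are descriptions with no p, since the oocytes of a female share mother and lane and all genes of an oocyte share its library. Within females the median r was 0.387 within the small subunit, 0.246 within the large and 0.318 between them. Pairs across the subunits thus lay between those within either. The mean log2 levels of the subunits had r = 0.956 and rho = 0.952 over 21 oocytes, r = 0.943 without the 2 oocytes farthest from the median and r = 0.944 within females.

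The correlation depended on the level. For the 31 genes with at least 5 RPM the median r within females was 0.409, and for the 12 with at least 20 RPM it was 0.549. No median over all genes at these levels is given here, so whether other genes rise alike was not tested. It rested in part on 1 female: without the AMH_Tg female of lane 3, whose oocytes differed most, the median over the 61 genes was 0.241. Rps15a (median r with the other genes of 0.581 within females), Rps14 (0.568) and Rps27l (0.564) followed the group most closely. Rpl15 (-0.148), Rpl41 (-0.119) and the merged Rpl24 entry (-0.0732) followed it least. Rpl15 was nonetheless among the more abundant genes, with 42.3 ± 6.53 RPM in AMH_Tg and 45 ± 2.24 RPM in WT. Rps27l had r = 0.833 (rho = 0.827, 0.849 within females) with the sum of the other genes of the 84 over 21 oocytes. It was 0.775 without the 2 farthest oocytes. Rpl39l had r = 0.82 (rho = 0.809, 0.88 within females) with the same sum, and 0.787 without the 2 farthest.

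The percentage of reads assigned to listed genes moved with these transcripts too. Over 21 oocytes it had r = -0.855 and rho = -0.797 with the mean log2 level of the tested genes, r = -0.819 without the 2 farthest oocytes and r = -0.899 within females. Library totals had r = -0.465 and rho = -0.425, and r = -0.29 without the 2 farthest. The part of either in the co-variation was not tested. The median r with scaling by the median of ratios was 0.289 within females. Mitochondrial ribosomal protein genes had a median r of 0.138 within females (72 genes), other mRNAs with a terminal oligopyrimidine tract 0.239 (17), and assembly factors of the small and large subunit 0.0866 (37) and 0.0499 (28).

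**Figure D5:**
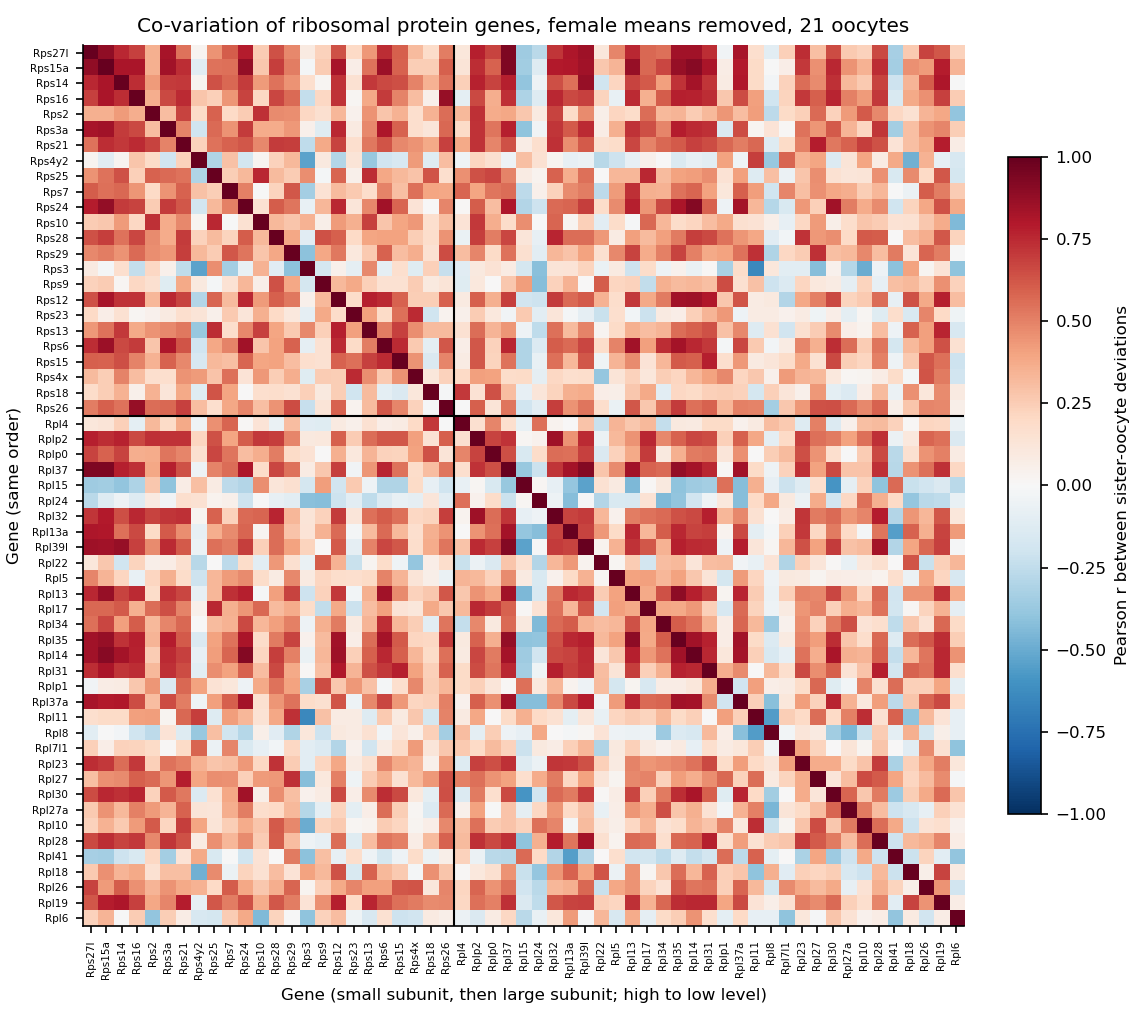
Pearson r between the deviations of 57 of the 61 tested ribosomal protein genes from their female's mean, over 21 oocytes, with small subunit genes first and large subunit genes after the black lines, each from high to low level. Positive values (red) fill most of the map, and the median over all 61 genes was 0.315. Rpl15, Rpl24 and Rpl41 stand out as pale or blue lines.

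Promoter motifs known from ribosomal protein genes were counted, since the transcripts varied together. RefSeq (GRCm38.p6) gave 75 windows of 300 bases, from 250 before to 50 after a start site, for 63 of the 84 genes. The ETS motif CCGGAAG occurred on either strand in 36% of them, against 8.86% of all 32851 windows. The YY1 motif AAGATGGC occurred in 10.7%, against 2.75%. The tract, a start at C on the gene's strand followed by 4 or more pyrimidines, was found in 17.3%, against 2.51%. By subunit, the ETS motif was in 12 of 29 small and 15 of 46 large subunit windows. A match describes letters only and shows neither a site in use nor a cause of the levels. The stretches below run from 60 bases before to 20 bases from the start site, 5′ to 3′ on the gene's strand, for the pairs of Rps27l and Rpl39l, the paralogs furthest above the control RNA, and for the 2 genes of each subunit with the smallest p that have a window. Capitals mark the ETS or YY1 motif on either strand.
Rps27l, chr9:66946026-66946105, plus strand: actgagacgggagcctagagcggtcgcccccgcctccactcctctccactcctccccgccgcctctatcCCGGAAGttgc
Rps27, chr3:90213629-90213708, minus strand: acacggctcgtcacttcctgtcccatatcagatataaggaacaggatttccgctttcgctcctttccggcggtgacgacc
Rpl39l, chr16:10170168-10170247, plus strand: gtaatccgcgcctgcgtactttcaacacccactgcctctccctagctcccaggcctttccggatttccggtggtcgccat
Rpl39, chrX:37085203-37085282, minus strand: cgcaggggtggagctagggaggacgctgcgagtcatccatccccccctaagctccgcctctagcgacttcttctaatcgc
Rps3a, chr3:86142649-86142728, minus strand: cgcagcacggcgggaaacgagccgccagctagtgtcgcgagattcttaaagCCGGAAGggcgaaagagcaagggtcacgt
Rps21, chr2:180257319-180257398, plus strand: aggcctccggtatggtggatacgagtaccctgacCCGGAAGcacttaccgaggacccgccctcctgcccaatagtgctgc
Rpl14, chr9:120571457-120571536, plus strand: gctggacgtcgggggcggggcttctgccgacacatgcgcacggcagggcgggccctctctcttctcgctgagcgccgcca
Rpl23, chr11:97782420-97782499, minus strand: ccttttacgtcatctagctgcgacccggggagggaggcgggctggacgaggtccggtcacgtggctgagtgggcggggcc
Rps27l holds CCGGAAG just after its start site, Rps3a and Rps21 hold it before theirs, and the other stretches shown do not. Rpl39l and Rpl39 hold it elsewhere in their 300-base windows, and Rps27 holds the YY1 motif elsewhere in its window. Rps27, Rps21 and Rpl14 have the pyrimidine start and Rps27l, Rpl39l, Rpl39, Rps3a and Rpl23 do not, at the start sites RefSeq gives.

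Sister oocytes of a female differed in these genes by about as much as in other genes, a comparison that was not tested. The median SD of log2(RPM + 1) between sisters was 0.368 over the 61 genes, with a range of 0.128 (Rps23) to 0.886 (Rps4y2), against 0.41 over all genes tested. For Rps27l it was 0.309, where counting of reads alone gives 0.0169, and for Rpl14 it was 0.382 against 0.0898. Low genes came closer to counting error: for Rpl27a it was 0.204 against 0.141. For Rps23 counting alone gives 0.144, more than the 0.128 seen. By female the median SD was 0.191, 0.218, 0.544 and 0.187 in AMH_Tg and 0.3, 0.306, 0.265 and 0.188 in WT, in lanes 1 to 4. The AMH_Tg female of lane 3 stood apart. Her oocytes held 757, 1143 and 1468 RPM summed over the 84 genes, a 1.94-fold range, with log2 ratios of the small to the large sum of -0.53, -0.15 and 0.18. The other AMH_Tg females had ranges of 1.11-fold to 1.2-fold and the WT females of 1.02-fold to 1.41-fold. Over all genes her oocytes also had the largest median SD (0.407).

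Ribosomal proteins outside the symbol rule were described in the same way. Fau, made as a fusion of Rps30 with a ubiquitin-like protein, had 20 ± 7.81 RPM in AMH_Tg and 27.1 ± 7.64 RPM in WT (-0.47 ± 0.27, adjusted p = 0.764). Rpl36al differed by -0.45 ± 0.26 (adjusted p = 0.764). Gnb2l1, the scaffold protein Rack1 on the small subunit, had 163 ± 21.6 RPM in AMH_Tg and 161 ± 10.8 RPM in WT (0.01 ± 0.14, adjusted p = 0.995).

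Mitochondrial ribosomal protein genes, which serve a separate ribosome, were lower in AMH_Tg in 62 of 72 (median -0.34). Of all genes tested 52.2% were lower. In this list 11 genes were lower at an unadjusted p under 0.05 (4.03% of all genes tested), and none passed the adjusted threshold. Mrps25 was an example, with 41.9 ± 5.77 RPM in AMH_Tg and 62.3 ± 10.5 RPM in WT (-0.55 ± 0.18, adjusted p = 0.724). Of the other mRNAs with a terminal oligopyrimidine tract 15 of 17 were lower (median -0.17), among them the elongation factor subunit Eef1b2 (35 ± 7.29 RPM in AMH_Tg, 45.8 ± 6.28 RPM in WT). Factors that build ribosomes had medians near that of all genes. Small subunit assembly factors were lower in 20 of 37 (median -0.02) and large subunit assembly factors in 17 of 28 (median -0.03), against 52.2% of all genes tested. Imp4 and Imp3, partners in small subunit processing, had the smallest p of the small subunit factors, at -0.50 ± 0.15 and -0.59 ± 0.25 (adjusted p = 0.724 for both). Eif6, which keeps free large subunits from joining small ones, had 91.5 ± 8.28 RPM in AMH_Tg and 123 ± 22 RPM in WT (-0.39 ± 0.16, adjusted p = 0.724).

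RNA polymerase I genes were lower in 7 of 11 (median -0.09), against 52.2% of all genes tested. Polr1d, a subunit shared with RNA polymerase III, was the one at an unadjusted p under 0.05. Of regulators of ribosomal protein mRNAs 7 of 15 were lower (median 0.01) and of ribosome dormancy factors 2 of 5 (median 0.06). Of the regulators, Larp1, which binds the oligopyrimidine tract, had 6.97 ± 1.73 RPM in AMH_Tg and 7.82 ± 1.62 RPM in WT. Mtor had 22.4 ± 3.76 and 19.6 ± 4.31 RPM, and Larp4b had 180 ± 25.3 and 143 ± 24.5 RPM (0.34 ± 0.16, adjusted p = 0.738). Of the dormancy factors, Ccdc124 had 4.77 ± 1.01 RPM in AMH_Tg and 7.76 ± 1.89 RPM in WT (-0.63 ± 0.24, adjusted p = 0.724), while Serbp1 had 215 ± 12.8 and 209 ± 32.2 RPM. No gene of these lists passed the adjusted threshold with limma on female means, and differences between the lists were not tested.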

How the data were processed

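Single-oocyte cDNA was amplified with SMART-Seq v4 and made into libraries with ThruPLEX, per the labels' protocols. Trim Galore, FastQC and HISAT2 and the build GRCm39 (mm39) stand in the submitters' processing notes, without versions; the gene counter and annotation are not stated there. The coordinates of the deposited table match GRCm38: of 25035 IDs found in GENCODE M21, 99.7% overlapped their gene. The deposited log2 values are named RPKM but, tested on the values, are log2 RPM, reads scaled to the library total with no division by length. Where a gene had no reads, the table lists the equivalent of 0.9 reads. Of 256342 values under 2000 reads, 100% came out within 0.02 of a whole read, so reads were recovered and RPM set to 0 where there were none. The planned tests were kept, with RPM in place of RPKM.

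Oocytes were averaged per female on log2(RPM + 1), a scale that understates differences of low genes. Genes averaging 1 RPM or more (10987) were tested between 4 AMH_Tg and 4 WT females with limma 3.58.1 (lmFit and eBayes with trend, R 4.3.3, Benjamini-Hochberg adjustment), and the method was tested on simulated data. Errors are SD over females, or SE of the limma difference. Library totals of 20400000 to 33300000 reads set the precision of low values; reads were amplified without molecular identifiers, so limits from counts cover counting error only. Levels per kilobase used coding bases of M21. The lane was labelled as shared by the females with 1 replicate number and so pairs them; lane mates' deviations correlated at -0.04, 0.084, 0.342 and 0.317. Python 3.11.15 with numpy 2.4.6, pandas 2.3.3, scipy 1.17.1 and matplotlib 3.10.9 was used otherwise.

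The members and lists were chosen with earlier results of these data known. Named members were the 5 with the smallest p in each subunit, those with the opposite sign to the median, the 4 highest and 4 lowest per kilobase, paralog pairs, the 3 highest and 3 lowest in co-variation, the 4 most above and 4 most below the control RNA and those under 1 RPM, and from each pathway list up to 3 with the smallest p. Some genes that the rule names are not reported here. Genes named beyond it were chosen after their values were seen.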

Additional observations from a re-analysis of the deposited data

Results flagged for a closer look

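In groups of 4 females a value was singled out when its gap to the nearest other female was unusually large for the range (Dixon's test at 95%). Over 34 measures this met 9 of 68 groups of females. Many of the measures were chosen from these same values, and several overlap. The count therefore cannot be set against a chance rate. The WT female of lane 4 accounted for 4 of the 9. In her Rps3a was at 6.22 RPM (10.2 to 10.9 RPM in the other WT females), the Rpl24 entry at 20.5 RPM (32.1 to 34 RPM), the Rps4y2 entry at 21 RPM (2.26 to 4.48 RPM) and Rpl41 at 8.68 RPM (0.798 to 1.17 RPM). Rpl8 stood low in the WT female of lane 2, at 3.74 RPM against 5.43 to 5.63 RPM in the others. Rplp2 was set apart in both genotypes, at 39.4 RPM in the AMH_Tg female of lane 1 (68.2 to 69.9 RPM in the other AMH_Tg females) and at 84.2 RPM in the WT female of lane 1 (74.5 to 76.1 RPM in the other WT females). Summed cumulus markers reached 11.1 RPM in the WT female of lane 2, against 1.06 to 1.31 RPM in the other WT females. The median SD between sister oocytes over ribosomal protein genes was 0.544 in the AMH_Tg female of lane 3, against 0.187 to 0.218 in the other AMH_Tg females.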

How the results depend on the processing

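No alternative brought a ribosomal protein gene past the adjusted threshold. With the sequencing lane as replicate block, which pairs the females, 59 of 61 were lower in AMH_Tg, 16 at an unadjusted p under 0.05, and none was called (lowest adjusted p 0.456); the block changed no other call. A fit on single oocytes, with a random effect for the female besides the replicate block, gave 24 at an unadjusted p under 0.05 (lowest adjusted p 0.0989), and voom gave 6. With a pseudocount of 5 the median difference was -0.22, and the median SD between sister oocytes was 0.24. Requiring a mean of 5 RPM left 29 lower of 31, 8 at an unadjusted p under 0.05, and co-variation of 0.409 within females and 0.493 without removal of the female mean. At 20 RPM it was 0.549 and 0.53, and with Spearman correlation 0.266 within females. Genes that share under 25% of their stretches had 6 lower, 1 at an unadjusted p under 0.05, and those that share at least 75% had 8 at that level. Past 4-fold, 37 genes were lower in WT oocytes than in the control RNA. Leaving out single females gave 2 to 18 at an unadjusted p under 0.05, and co-variation of 0.241 to 0.334 within females and 0.309 to 0.472 without removal of the female mean. It also changed the sign of Rps4y2 (-0.12 to 0.86), Rpl41 (-0.66 to 0.11), Rps3 (-0.79 to 0.0302) and Rpl7l1 (-0.35 to 0.0118); the cause was not tested. Of 441 values of 25 named genes under other settings, 437 kept their sign. The settings without the oocyte highest in cumulus markers, by shared stretches, at 20 RPM, without Rps27l and without the Rpl24 and Rps4y2 entries were chosen after seeing the data.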
